A study of Mus musculus with 4 samples.

Results

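Receptor and adaptor genes of natural killer (NK) cells were followed through the arrays: the Ly49 receptors Klra3, Klra4, Klra7 and Klra8, the lectin-like receptor Klrb1b, the SLAM-family receptor Cd244a, the Fc receptor Fcgr3 and the signalling chain Fcer1g. They were found by gene symbol, and all 8 had a probe set with that symbol alone, 6 of them on the A and 2 on the B chip, among 6137 genes with such a probe set and 13069 gene probe sets in all. A further 2 probe sets on the A chip list one of these genes together with Klra9, and their signal is assigned to neither. The study profiled B6.2.16 CD8 T cells, which carry 1 transgenic receptor that sees the male HY antigen. Naive cells (purity stated as above 85%) came from the lymph nodes of B6.2.16 females without RAG1. For memory cells, splenocytes of such females were cultured with HY peptide for 4 d, transferred into female RAG1-deficient hosts, and recovered from spleens and lymph nodes after 200 d by magnetic beads (purity stated as above 80%). Both populations were hybridised to an Affymetrix A and B chip, 4 arrays in all, with 1 array of a population on each chip. Organ, culture, transfer and memory state thus differ together between the populations, and their parts in any difference cannot be told apart. The age of the mice and whether animals were pooled are not stated in the labels.

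NK cells weigh inhibitory against activating receptors. Most Ly49 receptors bind MHC class I. Klra3 (Ly49C) and Klra7 (Ly49G) carry an inhibitory tyrosine motif that recruits the phosphatase Ptpn6, whereas Klra4 (Ly49D) and Klra8 (Ly49H, which recognises a cytomegalovirus protein) lack it and signal through the adaptor Tyrobp. Fcer1g is the gamma chain that carries the activating tyrosine motif (ITAM) for Fcgr3, the low-affinity IgG receptor, and both are made by NK cells, macrophages, granulocytes and mast cells. RAG1 deficiency removes B cells and all T cells but transgenic ones and leaves NK and myeloid cells in place. Donors and hosts alike thus held cells that normally express these genes. Memory CD8 T cells can also carry NK receptors.

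The upstream sequences of the 4 Ly49 genes are shown because Klra4 and Klra8, the members compared on the B chip, are close in sequence there. Their inhibitory relative Klra7 was less close, and Klra3 matched them no better than some members outside the Ly49 family. The upstream bases lie outside the transcript and do not show what the probes can tell apart. All 4 lie on chromosome 6 among other Klra genes, Klra4 directly beside Klra8. Each line gives the 150 bases before the outermost start of the gene in RefSeq (GRCm38.p6), 5′ to 3′ along the gene's strand. Capitals mark the longest run common to all 4 windows.
Klra3 (chr6:130337627-130337776, minus strand): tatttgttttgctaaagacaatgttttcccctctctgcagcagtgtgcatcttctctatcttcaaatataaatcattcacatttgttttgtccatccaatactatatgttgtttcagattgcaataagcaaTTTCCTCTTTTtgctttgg
Klra4 (chr6:130067272-130067421, minus strand): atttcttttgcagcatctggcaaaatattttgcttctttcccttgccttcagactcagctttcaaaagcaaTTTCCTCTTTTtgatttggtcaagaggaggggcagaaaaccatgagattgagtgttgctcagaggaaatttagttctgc
Klra7 (chr6:130233323-130233472, minus strand): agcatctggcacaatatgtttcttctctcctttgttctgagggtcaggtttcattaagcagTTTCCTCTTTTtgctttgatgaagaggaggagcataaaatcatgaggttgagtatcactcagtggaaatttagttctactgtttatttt
Klra8 (chr6:130129899-130130048, minus strand): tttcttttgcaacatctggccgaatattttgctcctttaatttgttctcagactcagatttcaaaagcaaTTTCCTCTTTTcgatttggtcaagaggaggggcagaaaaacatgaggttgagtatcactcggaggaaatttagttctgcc
The windows of Klra4 and Klra8 were the closest pair, with 131 identical bases in 151 aligned columns (86.8%). Klra7 matched them at 70.2% and 71.2%, and Klra3, whose annotated start lies closer to the shared run, at 47.6% (Klra4), 47.6% (Klra7) and 49.7% (Klra8), within the 40.0% to 50.0% seen in all pairs with Klrb1b, Cd244a, Fcer1g or Fcgr3. The common run TTTCCTCTTTT has 11 bases and begins 19, 79, 89 and 80 bases before the starts of Klra3, Klra4, Klra7 and Klra8. On either strand it occurred in 31 of 32851 such windows of the table (0.0944%), and 9 of the 31 belonged to Klra genes. It was found in these windows, so that share is a description. The run contains TTCCTC, the reverse strand of GAGGAA, a purine-rich core bound by ETS-family factors. GAGGAA was present on either strand in 5 of the 8 windows, those of the 4 Ly49 genes and of Fcgr3. Over all windows its share was 14.5%. The 4 Ly49 windows had to hold it, because the run was picked as common to them, so these shares show no enrichment.

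Signals were array intensities that include negative numbers, and the upper range of the negative values set the noise limits. On the B chip the floor was 423 after scaling. On the memory A array the limit was 184, and 26.8% of its 6529 probe sets lay above it. By the brightest probe set of each gene, so did 1415 of its 4775 genes with a probe set of that symbol alone. The counts of list genes on this array stand beside that share. Another gauge was given by 6 probe sets printed on both chips whose names have the form of yeast open reading frames and for which no gene is listed. They read from -12 to 64 on memory A, from -20.8 to 145 on memory B and from -37.3 to 175 on naive B. The memory and naive arrays had a Spearman correlation of 0.85 across the 6540 gene probe sets of the B chip and of 0.10 on the A chip. The 55 control probe sets gave 0.96 between the memory arrays of both chips and 0.21 between the naive ones. Naive A values thus hardly followed their gene names, and members on the A chip have a level in memory and no comparison. A single array per population on a chip gives no spread, p-value or standard error, and probe sets of different genes are not ranked against each other because their affinities differ.

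The Fc receptor chains gave clear signals in the memory preparation. Fcer1g read 2267 on the memory A array, 12.3 times the noise limit. Fcgr3, its ligand-binding partner, read 784, 4.26 times the limit. Both lay far outside the range of the yeast-named probe sets. Beside 1415 of 4775 genes of the array, 3 of 9 other Fc receptor and ITAM adaptor genes with a probe set on the A chip were above the limit. These were Fcgrt, the receptor that recycles IgG, at 453, and the T cell receptor chains Cd3e and Cd247 at 317 and 240. A Cd247 probe set on the B chip was under the floor on both arrays, with 168 in memory and 223 in naive cells. The high-affinity IgG receptor Fcgr1, made by monocytes and macrophages, read 113, under the limit. The IgE receptor partners of the gamma chain in mast cells were under the limit, with 37 for Fcer1a, the IgE-binding chain, and 73 and 35 for the pair of Ms4a2 probe sets, which read the beta chain of that receptor.

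**Figure D1:**
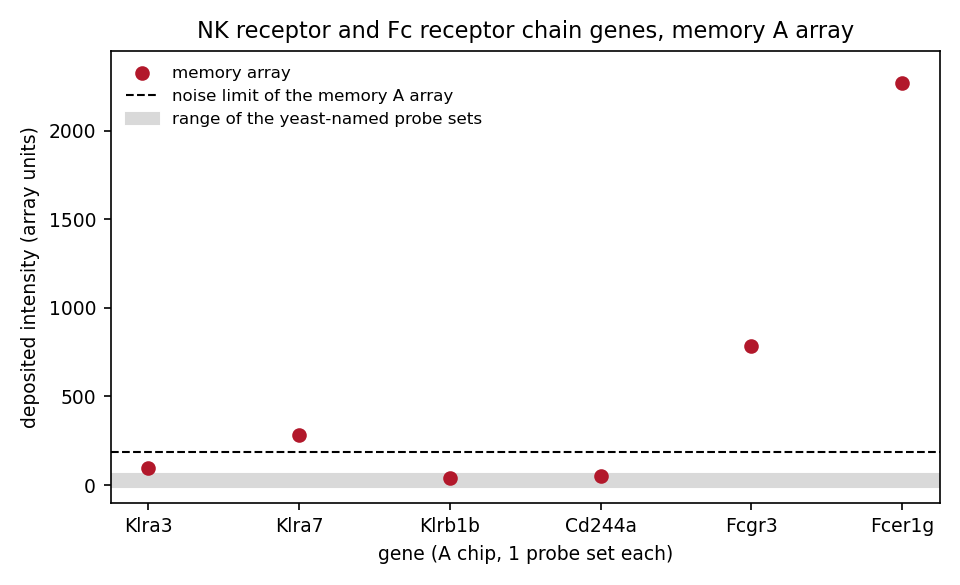
Deposited intensity (array units, linear axis) of the 6 genes read on the memory A array, 1 point per probe set, with the noise limit of 184 dashed and the range of the 6 yeast-named probe sets shaded. Fcer1g at 2267 and Fcgr3 at 784 stand well above the limit, Klra7 at 283 lies just above it, and Klra3, Klrb1b and Cd244a lie under it.

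Among the inhibitory Ly49 receptors, Klra7 read 283 on memory A, 1.54 times the limit, and was under it when the limit was doubled. Klra3 read 97, under the limit and above the yeast-named range. The other 3 Klra genes with a probe set of their own on this chip were at background, with 11 for Klra2, -4 for Klra5 and 29 for Klra6. Of the 8 Klra probe sets on the A chip, counting 3 that list several genes, Klra7's was the only one above the limit. The probe sets listed for Klra8 with Klra9 and for Klra3 with Klra9 read 157 and 53.

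Klrb1b, an inhibitory receptor of the NKR-P1 family that binds the lectin Clec2d, read 41 on memory A, inside the range of the yeast-named probe sets. None of the 5 other lectin-like NK receptor genes on this chip was above the limit. Its family members Klrb1c, the activating receptor known as NK1.1, and Klrb1a read 18 and -3. Cd244a, which is carried by NK cells and by some memory CD8 T cells, read 53, also inside that range. Thus 3 of the 6 members on memory A were above the limit and 3 were under it, beside 26.8% of all its probe sets above it. A level under the limit was not detectable on this array, which does not show that the transcript was absent. All 6 members are read by probe sets of a lettered class. Klra3's belongs to the sequence-family class, whose probes can match related genes. Whether the other lettered probe sets, among them those of Fcgr3 and Klra7, also read related genes was not examined.

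The B chip allowed memory to be set against naive cells for the activating pair Klra4 and Klra8. Klra4 read 102 in memory and 548 in naive cells. Klra8 read 279 in memory and 516 in naive cells. Both were higher in the naive preparation, where they stood at 1.30 and 1.22 times the floor, and both were under the floor in memory. With the memory value raised to the floor, the naive signal was at least 1.30-fold higher for Klra4 and at least 1.22-fold higher for Klra8 (log2 ratios of memory to naive of -0.37 and -0.29). The memory value of Klra4 lay inside the yeast-named range, and that of Klra8 above it. Neither gene was called: 0 of the 2 were higher and 0 lower. A call required a ratio of at least 2-fold and a brighter array of at least 2 times the floor. At 1.30 and 1.22 times the floor in naive cells, with memory under it, neither gene could meet this. The count was thus fixed by the rule and says nothing about the receptors. Over all 6540 probe sets, 67 (1.02%) were called higher and 113 (1.73%) lower in memory. Of the 1056 probe sets above the floor on at least 1 array, these were 6.34% and 10.7%. The split of higher to lower became 94 to 91 with median-ratio scaling, 100 to 73 with quantile and 77 to 55 with intensity-dependent normalization. A naive value between 1 and 2 floors with a memory value under the floor was frequent on this chip, at 199 of 495 probe sets (40.2%). With the floor halved, the Klra4 ratio became -1.37 and was called lower, and Klra8 moved to -0.89 without a call. At that floor 207 probe sets were called lower. They were 3.17% of all probe sets, and 1887 probe sets were above that floor on at least 1 array. In bulk RNA, fewer cells of a type and less RNA per cell cannot be told apart.

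The remaining 4 Klra probe sets of the B chip were under the floor on both arrays, so no difference could be measured for them. A pair of Klra9 probe sets read 161 and 104 in memory and 405 and 285 in naive cells, Klra6 read 52.6 and 150, and Klra5 read -12.9 and -1.01. All 6 Klra probe sets on this chip are of the sequence-family class, so they may read overlapping transcripts. Probe sets made from the same database entries exist on the A chip for Klra5 and Klra6, and their memory values there were -4 and 29, at background on both chips. The entry behind the Klra8 probe set gave 157 on memory A, under the limit as on memory B. It is listed there for Klra8 and Klra9. The entry behind the Klra9 probe set at 104 and 285 gave 53 on memory A, where it is listed for Klra9 and Klra3. The annotation of both entries thus differs between the chips.

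**Figure D2:**
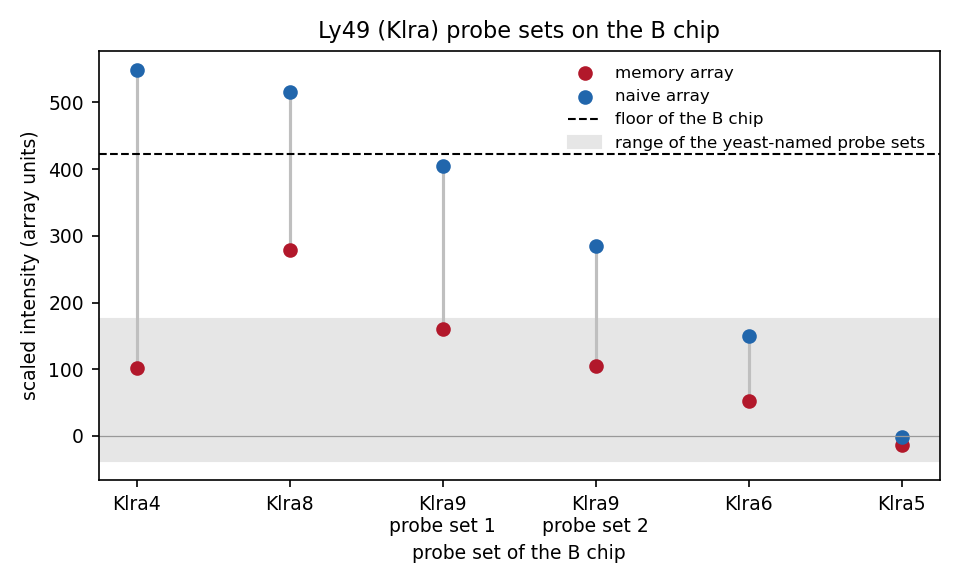
Scaled intensity (array units, linear axis) of the 6 Klra probe sets of the B chip in the memory and the naive array, with the floor of 423 dashed and the range of the yeast-named probe sets of both arrays shaded. Only the naive points of Klra4 and Klra8 exceed the floor.

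The ligands and partners of these receptors were read on the same chip. Cd48, the ligand of Cd244a, gave 699 in memory and 646 in naive cells, a log2 ratio of 0.11. It was the only measured member of the SLAM list. Of the class I molecules that Ly49 receptors bind, the heavy chain H2-D1 read 2572 in memory against 9639 in naive cells and was called lower (log2 ratio -1.91). The light chain B2m read 3812 against 6574 and was not called (-0.79). Both belong to the very bright signals of this chip. Both are read by probe sets of the sequence-family class, whose probes can match related genes, so the signal may not be of the named gene alone. With intensity-dependent normalization H2-D1 moved to -0.69 and lost its call, and B2m turned to 0.44, and to 0.54 with quantile normalization. On memory A, 4 of 5 listed class I ligand genes were above the limit, with H2-K1 at up to 2351. The H2-D1 probe sets there read 2238, 1354 and -2.

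Of the kinases that act on tyrosine motifs, Syk, which docks on the phosphorylated ITAM of Fcer1g, differed most. It read 1650 in memory against 501 in naive cells, 3.29-fold higher (log2 ratio 1.72). Its ratio lay between 1.71 and 1.87 under all 4 other scalings, and its call depended on the floor. Its naive value was close to the floor, and with the floor doubled the ratio was 0.96 and no longer called. The call was also lost, with the ratio still 1.72, when the brighter array had to reach 4 times the floor. Zap70, the related kinase of T cells, read 221 in memory against 424 in naive cells, the first under the floor and the second at it, so its ratio is not informative. The Src-family kinase Fgr of myeloid cells read 1055 against 843 (0.32). Syk was thus 1 of 3 measured genes of the signalling list called higher, with none lower, beside 41 higher (8.87%) and 40 lower (8.66%) among the 462 measured genes of the chip. The T cell chains Cd3d (959 against 1115, log2 ratio -0.22) and Cd3g (254 against 502, at least 1.19-fold higher in naive) were the measured Fc receptor and ITAM adaptor genes on B, and neither was called. On memory A, 7 of 11 signalling genes were above the limit. They included Ptpn6, the phosphatase recruited by inhibitory Ly49 receptors, at 858, the adaptor Grb2 at 782 and the lipid phosphatase Inpp5d at 236.

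Markers of other cells were present beside these values. Macrophage and monocyte markers were above the limit for 8 of 12 genes on memory A (61 to 2409, summed level 10579), among them Ctss at 2409, Hmox1 at 2228, Lyz2 at 2007, C1qb at 1921 and Cd68 at 598. On the B chip 7 of 13 measured were higher in memory and none lower, with a median log2 ratio of 1.14 against -0.12 for all measured genes and a summed level of 32419 in memory against 18267 in naive cells. By the brightest probe set of each gene, Mpeg1 at 3665 against 954, Mrc1 at 1810 against 596, Csf1r at 2723 against 1090 and Lgmn at 1148 against 463 had the largest ratios. The probe set made from the same Mpeg1 entry on the A chip read 96 on memory A, under the limit. Granulocyte and mast cell markers reached 2483 for S100a8 and 1811 for Ngp on memory A, with 5 of 11 above the limit, among them S100a9 at 2162. Of the mast cell proteases, Tpsb2 read 253, above the limit, while Cpa3, Cma1 and Mcpt4 read -6, 3 and -41, all under it. On B, 4 of their 8 genes were measured and none was called (summed level 10371 against 11027). Dendritic cell markers were above the limit for 2 of 4 genes on memory A, with H2-Aa at up to 3232, and on B 1 of 4 measured was higher (H2-Ab1) and 1 lower (Cd74), with a summed level of 10830 against 16259.

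Beside 1415 of 4775 genes of the memory A array, 3 of 7 NK cell markers were above the limit. These were Ccl5 at 1269, Cd7 at 366 and Eomes at 205, the last at 1.11 times the limit. The defining NK marker Klrb1c read 18, the cytokine Xcl1 -12 and the receptor chain Il2rb 148, all under the limit. CD8 T cells can also make genes of this list, whether above or under the limit here. On B only Gzma of this list was measured, with 1405 in memory against 2848 in naive cells (log2 ratio -1.02), a call that was lost under each other scaling (-0.998 to -0.871). The integrin Itga2, the other listed NK marker on B, was under the floor on both arrays (43.7 and 61.5), so the summed level of 1448 against 2910 is that of Gzma. T cell markers were above the limit for 4 of 6 genes on memory A (15 to 354), with Il7r at 354 and Cd3e at 317, and on B 1 of 4 measured was lower (Thy1, 2848 against 6184) and none higher. Cd8a, the coreceptor chain of these cells, read 498 in memory and 352, a value under the floor, in naive cells and was not called. The summed level of the T cell list was 4965 against 8529, most of it from Thy1. The call of Thy1 was lost with median-ratio, quantile and intensity-dependent scaling (-0.97, -0.34 and -0.14). The part of macrophage, granulocyte, NK or T cell content in the Fcer1g, Fcgr3, Syk and Klra values was not tested.

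**Figure D3:**
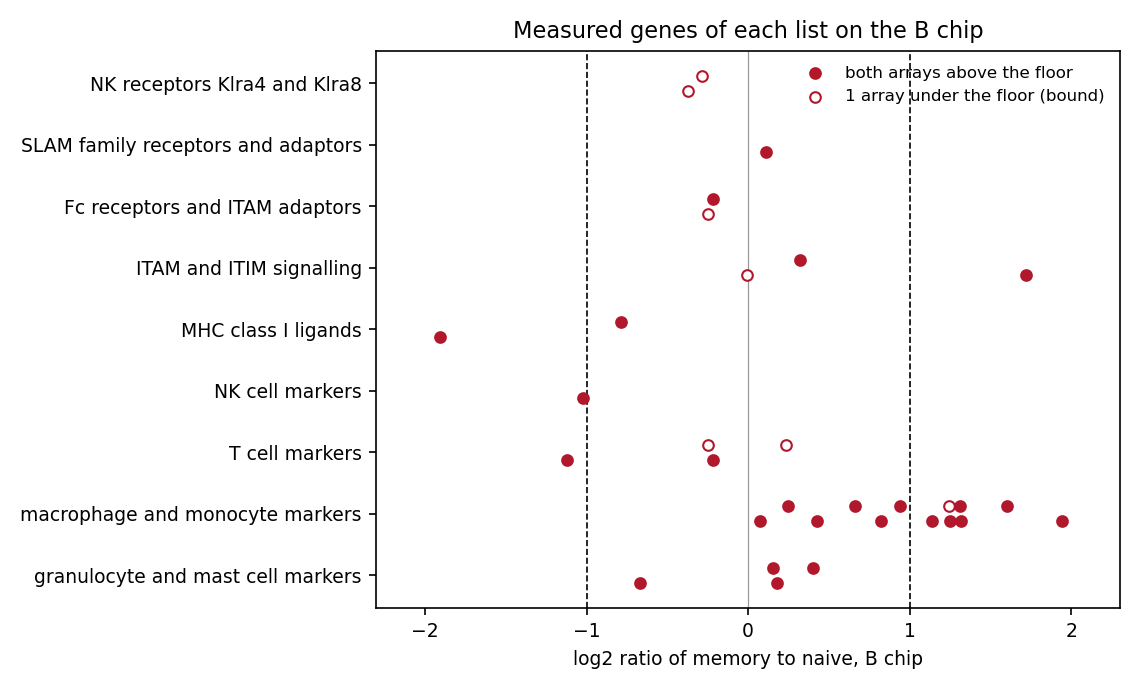
Log2 ratio of memory to naive on the B chip for Klra4 and Klra8 and for each measured gene of 8 lists, 1 point per gene, with 2-fold marked by dashed lines. Open points have 1 array under the floor and are bounds. Both receptor points lie left of 0 and inside 2-fold, Syk at 1.72 is the highest point of its list, and the 13 macrophage markers all lie right of 0.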

How the data were processed

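RNA isolated with Trizol was made into cRNA and hybridised by the array maker's protocol, per the labels. The deposited table holds intensity values, whole numbers with negatives. The authors' software, its settings and any build are not stated there or in the labels. Samples were grouped by title. Symbols came from the platform annotation, checked by Entrez number against RefSeq (GRCm38.p6), which changed 0. Control probe sets (55 per chip) were left out, and the B arrays were scaled to a common 2% trimmed mean (factors 0.993 and 1.01). The floor was set at the 95th percentile of the absolute negative values of the noisier array. Memory A values were used as deposited, with that array's own limit. The brightest probe set stood for a gene, which was measured when 1 array or both exceeded the floor. Calls are by size only, with no test, since each group has 1 array per chip. The members, lists and thresholds were chosen with earlier results of these data known. The rule for named genes took every member, up to 4 genes of a list past 2-fold and up to 2 more of the highest level. It also allowed listed receptors and adaptors with a probe set above the floor or noise limit. It was not used in full, and genes outside it were named after their values were seen. Windows upstream of genes were aligned globally with Biopython (match 2, mismatch -1, gap -4 and -1). Python 3.11.15, numpy 2.4.6, pandas 2.3.3, scipy 1.17.1 and statsmodels 0.14.6 were used.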

Additional observations from a re-analysis of the deposited data

Results flagged for a closer look

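The naive A column was used in no comparison, yet 2 of the 6 members on that chip have a value there above that array's noise limit of 296. Cd244a is listed at 2815 and Klra3 at 494, against 53 and 97 on the memory A array. Because the naive A values hardly follow their gene names (Spearman correlation of 0.10 with memory A), these values cannot be assigned to the genes.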

How the results depend on the processing

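No paired analysis was possible because each group has 1 array per chip, and no array could be left out. The log2 ratios of Klra4 and Klra8 could move only with quantile normalization (-0.59 and -0.50), intensity-dependent normalization (-0.36 and -0.28), the halved floor and each array's own limit; the other alternatives leave them fixed. Only the halved floor changed a call: Klra4 became -1.37 and Klra8 -0.89, so that 1 member was called lower. Beside it, 207 (3.17%) of all probe sets were lower and 112 (1.71%) higher, with 1887 above that floor on at least 1 array. With the floor doubled both genes lay under it and gave no ratio, and 74 probe sets were lower and 25 higher. Unscaled and median-ratio values leave these 2 bounds unchanged by construction, because the floor is set by the naive array and scales with it. Added after the data were seen, each array's own noise limit as its floor gave -0.93 and -0.85, with no call. Counts over all probe sets at 1.5-fold and 3-fold were 109 and 19 higher and 185 and 39 lower. No member could be called at either, because both bounds are under 1.5-fold. Wherever these bounds stayed fixed no call was possible, so an unchanged call there says nothing about stability. Median-ratio scaling moved the median of measured probe sets from -0.12 to -0.018. On memory A, 4 members passed with the limit halved and 2, Fcer1g and Fcgr3, with it doubled. Of 60 list counts under alternatives 55 stayed within 1.5 times. Most of these were 0 in the main setting and stayed 0, so the share says little about stability. The signalling list had 0 higher with the doubled floor, since the naive Syk value is set to the floor. With quantile normalization the NK, T cell and dendritic lists had 0 lower and the granulocyte list 1 higher. The cause was not tested. Every member is read by a probe set with a class letter, so leaving those out gave no value.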
